A study of Mus musculus with 12 samples.

Results

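The genes described here are the core machinery of autophagy, 34 genes of the 47730 features in the deposited table of normalised counts. They were chosen by symbol, as the genes named Atg with a number, Ulk1 and Ulk2, the beclins, the Map1lc3 and Gabarap families, Wipi1 and Wipi2, Bnip3 and Bnip3l, together with Sqstm1, Nbr1, Tfeb and Tfe3, a rule that uses no measured value. Becn2 has no row in the table, and the pseudogene Atg4a-ps was left out by the rule. All 34 are annotated as protein coding, and all 34 passed the filter on low values (10 or more normalised counts, reached by 3 or more of the libraries compared) in every comparison.

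RNA was sequenced from 2 tissues of male C57BL/6J mice aged 5 to 6 months, skeletal muscle (gastrocnemius with plantaris) and testis, taken from fed animals between 6 and 7 hours after lights on. In each tissue there were 3 libraries from wild-type mice (Bckdk+/+) and 3 from mice labelled homozygous for a mutant Bckdk allele (BckdkM/M), 12 libraries in all. Bckdk encodes the kinase that inactivates the branched-chain ketoacid dehydrogenase and so restrains the breakdown of leucine, isoleucine and valine. Letters stand for the mouse numbers in the table. Wild-type A, B and C gave both tissues, D and F labelled mutant gave both tissues, G gave muscle and E gave testis.

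Autophagy encloses cytoplasm, protein aggregates or organelles in a double membrane, the autophagosome, which then fuses with lysosomes. The ULK kinase complex starts the process and is held in check by mTORC1, which senses amino acids, leucine among them. A phosphatidylinositol 3-kinase complex built on beclin 1 then marks the membrane, ATG9 and ATG2 proteins supply lipid, and a ubiquitin-like conjugation system attaches ATG8 proteins (LC3 and GABARAP) to it. Receptors such as p62 (Sqstm1) and NBR1 bring in ubiquitinated cargo. Skeletal muscle is known for high autophagic turnover during fasting, and in testis autophagy takes part in acrosome formation in spermatids and in steroid production by Leydig cells.

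The libraries held 12852427 to 15795722 counted reads each, recovered from the deposited values. Bckdk was at 2214 to 2627 normalised counts in wild-type muscle and 12.4 to 14.8 in mutant muscle. In testis the 3 wild types gave 68.0, 73.3 and 71.0 and the 3 labelled mutant gave 138, 119 and 114, so the testis libraries go against their label on this gene and are called labelled mutant throughout. A feature named NeoR in the table ran with the labels in both tissues, at 208 to 266 in mutant and 2.28 to 3.85 in wild-type muscle, and at 13.1, 19.9 and 18.6 in testis D, E and F labelled mutant and 1.76, 2.50 and 3.34 in wild-type testis. The tissues matched their names: the summed counts of 6 muscle fibre markers were at least 1166050 in every muscle library and at most 12976 in testis, and those of 7 germ cell markers were at least 118009 in every testis library and at most 2171 in muscle. Mutant muscle F and G stood apart from the other muscle libraries. Their summed counts of 7 islet cell markers were 31566 and 29738, against 13086 to 15315 in wild-type muscle and 13329 in mutant D. G also had the highest adipocyte sum (52506, against 3857 to 20536 in the other muscle libraries), the lowest muscle fibre sum (1166050, against 1630470 to 2230260), and mitochondrially encoded genes took 11.5% of its counts, against 7.65% to 8.21%. Red blood cell markers summed to 3623 to 6001 in mutant and 2724 to 2867 in wild-type muscle.

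Muscle and testis expressed the machinery in different proportions. In wild type, Tfeb, Bnip3, Atg4a and Sqstm1 were 10.9-fold to 25.3-fold higher in muscle, and Nbr1 was 6.03-fold higher in testis. Some paralogs within a role went opposite ways. Ulk1 was higher in muscle and Ulk2 in testis, and Atg4a in muscle and Atg4c in testis. Map1lc3b and Gabarapl2 were higher in muscle and Gabarapl1 and Gabarap in testis. Others went the same way, Bnip3 with Bnip3l and Atg16l1 with Atg16l2 in muscle, and Atg2a with Atg2b in testis. How often paralogs of other genes go opposite ways was not counted. Fold changes here and below are from differences of log2(normalised count + 1), and a gene is called at an adjusted p below 0.05 in limma. Of the 34 genes, 28 were called, 17 higher in muscle and 11 higher in testis. Over all 19994 genes tested, 87.9% were called (37.3% higher in muscle and 50.6% higher in testis), so the count of members called is near the background. Asking for at least a 2-fold difference as well left 15 members higher in muscle and 6 higher in testis, against 29.5% and 43.5% of all genes. The median difference was 0.32 on the log2 scale over the 34 genes and -0.48 over all genes. Scaling by TMM (trimmed mean of M values) in place of the deposited scaling moved the median of all genes to -0.28 and the split of members called to 20 higher in muscle and 11 higher in testis. With bulk tissue, a lower share of the cells that express a gene and less RNA per cell cannot be told apart.

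**Figure D1:**
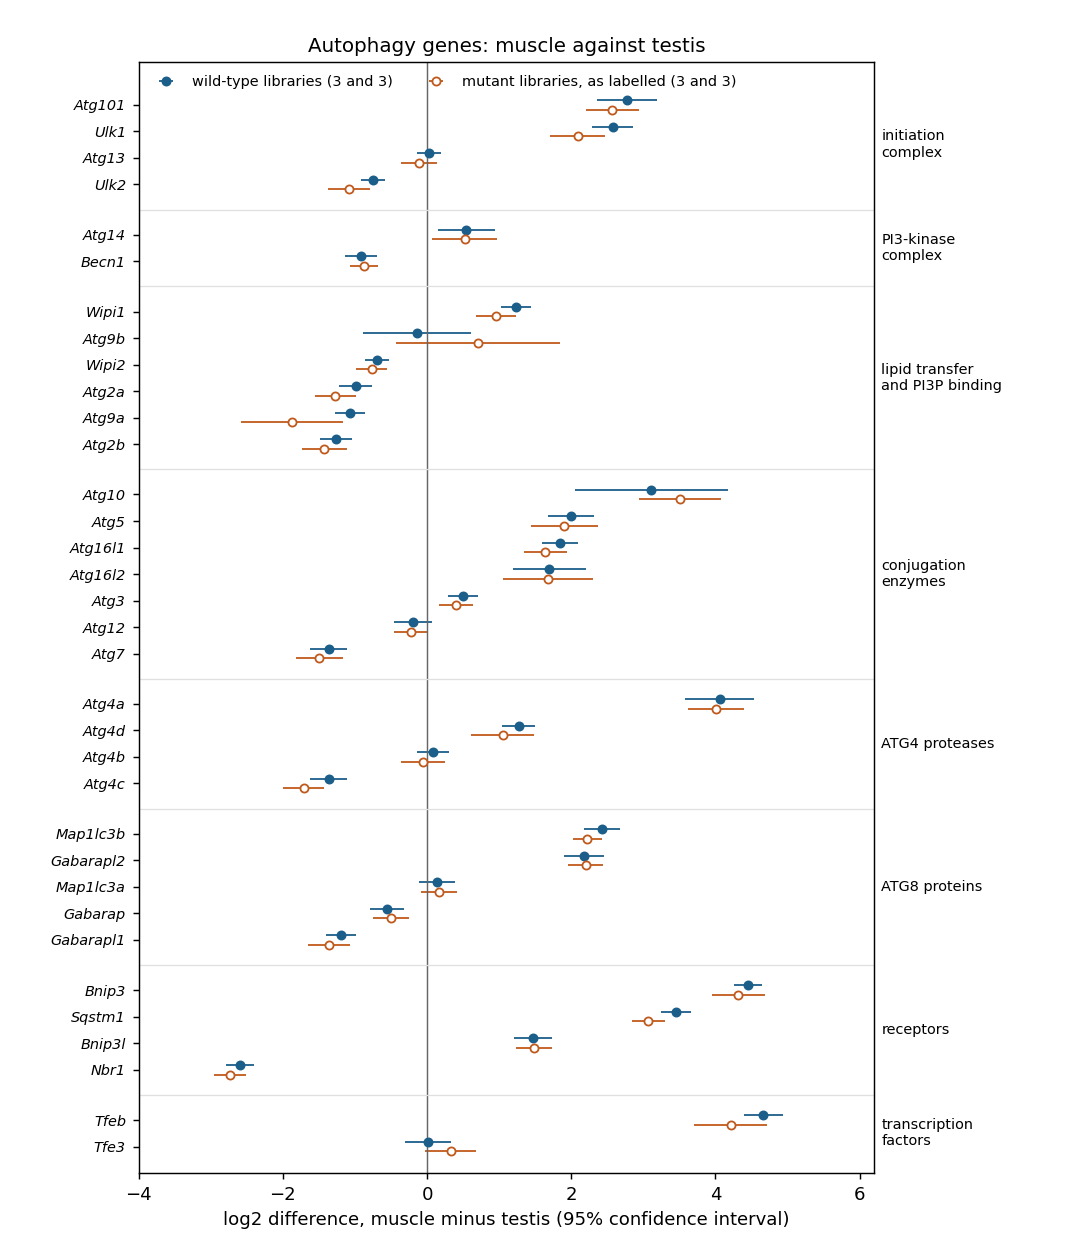
Log2 difference between muscle and testis (muscle minus testis, horizontal axis) for the 34 genes grouped by role, with 95% confidence intervals from limma. Filled points compare 3 with 3 wild-type libraries and open points 3 with 3 libraries labelled mutant; Tfeb, Bnip3 and Atg4a lie at 4 or more in both, and Nbr1 lies below -2.5 in both.

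Of the transcription factors, Tfeb was higher in muscle and Tfe3 did not pass the test. Tfeb, which switches on lysosomal and autophagy genes when it enters the nucleus, was at 1196, 1327 and 1523 normalised counts in wild-type muscle and at 51.2, 53.3 and 51.8 in wild-type testis. Every muscle library stood far above every testis library, and the difference of 4.66 ± 0.12 (SE) on the log2 scale was the largest among the 34 genes (limma, adjusted p = 6.48e-09). Its relative Tfe3, which acts on many of the same genes, was at 266, 246 and 200 in muscle and 251, 219 and 231 in testis, and these ranges overlap (difference 0.01, 95% confidence interval -0.30 to 0.33). Per kilobase of transcript, Tfeb made up 88.9% ± 2.5 (SD, n = 3) of the sum of the pair in wild-type muscle and 24.2% ± 1.6 (SD, n = 3) in wild-type testis. Tfeb thus led the pair in muscle and Tfe3 led it in testis, also when lengths were taken over all exons.

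TFEB and TFE3 bind the letters CACGTG (the E-box), which read the same on both strands, so the promoters were searched for them. The RefSeq promoter table used here (GRCm38.p6) holds 29 of the 34 genes, without Atg12, Atg16l1, Becn1, Bnip3l and Map1lc3a. In the 250 bases before these starts, CACGTG occurs in 4 genes, Atg3, Atg5, Atg7 and Bnip3, that is in 13.8%, against 6.86% of 27025 genes with a promoter in the same table. These shares were not tested against each other, and the promoters were not matched for base composition. The longer form TCACGTGA, which contains the E-box, occurs in Atg3 alone (0.907% of all genes). Searches of both strands of the same windows found the FOXO letters GTAAACA in 0 members (3.54% of all genes) and the cyclic AMP response element TGACGTCA in Atg16l2 (1.77%). The carriers of CACGTG did not share a tissue: among members with a promoter, it was in 2 of 13 that were at least 2-fold higher in muscle, 1 of 6 at least 2-fold higher in testis and 1 of the other 10. The 5 promoters printed are the E-box carriers Atg3 (chr16:45158579-45158828, plus strand), Atg7 (chr6:114670846-114671095, plus strand) and Bnip3 (chr7:138909507-138909756, minus strand), and a pair of ubiquitin receptors with opposite tissue levels, Sqstm1 (chr11:50210821-50211070, minus strand) and Nbr1 (chr11:101552404-101552653, plus strand), which lack it. Each is the 250 bases before the start, 5′ to 3′ on the strand of the gene, with CACGTG in capitals.
Atg3: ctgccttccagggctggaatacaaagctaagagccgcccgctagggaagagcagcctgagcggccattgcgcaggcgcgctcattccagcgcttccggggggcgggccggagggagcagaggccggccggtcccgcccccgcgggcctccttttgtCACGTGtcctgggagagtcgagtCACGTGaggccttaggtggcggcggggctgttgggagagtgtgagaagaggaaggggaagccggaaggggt
Atg7: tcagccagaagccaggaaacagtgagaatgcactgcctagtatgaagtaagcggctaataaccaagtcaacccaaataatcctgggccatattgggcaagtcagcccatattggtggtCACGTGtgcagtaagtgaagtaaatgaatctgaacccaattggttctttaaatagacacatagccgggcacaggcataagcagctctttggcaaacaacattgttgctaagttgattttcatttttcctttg
Bnip3: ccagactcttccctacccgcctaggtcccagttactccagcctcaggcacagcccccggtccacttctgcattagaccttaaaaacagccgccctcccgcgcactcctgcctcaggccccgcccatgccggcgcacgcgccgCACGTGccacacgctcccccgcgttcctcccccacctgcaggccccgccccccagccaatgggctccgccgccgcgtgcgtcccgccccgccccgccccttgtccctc
Sqstm1: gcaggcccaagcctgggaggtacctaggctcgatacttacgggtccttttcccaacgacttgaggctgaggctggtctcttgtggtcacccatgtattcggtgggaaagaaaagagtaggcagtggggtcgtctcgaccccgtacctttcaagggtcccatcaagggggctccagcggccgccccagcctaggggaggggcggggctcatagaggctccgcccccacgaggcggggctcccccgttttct
Nbr1: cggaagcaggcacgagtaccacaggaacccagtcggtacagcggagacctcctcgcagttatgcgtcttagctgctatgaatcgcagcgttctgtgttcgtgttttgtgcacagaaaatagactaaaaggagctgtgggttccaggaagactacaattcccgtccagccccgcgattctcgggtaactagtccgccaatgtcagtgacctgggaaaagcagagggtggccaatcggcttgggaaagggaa
Counted from the start, the E-boxes begin at -94 and -71 in Atg3, -132 in Atg7 and -108 in Bnip3, and at -14 in Atg5, whose promoter is not printed. A match is a description of the letters and was not tested as a binding site.

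In the initiation complex, Ulk1 and Atg101 were higher in muscle, Ulk2 was higher in testis, and Atg13, the scaffold that ties the kinase to its partners, did not pass the test (difference 0.03, 95% confidence interval -0.14 to 0.20). Ulk1, the kinase that phosphorylates the downstream complexes, was at 1292, 1659 and 1553 in wild-type muscle and 235, 236 and 283 in wild-type testis (5.95-fold higher in muscle; limma, adjusted p = 1.91e-07). Its close relative Ulk2 was at 1849, 1824 and 1701 in muscle and 2986, 2922 and 3114 in testis (1.68-fold higher in testis; limma, adjusted p = 1.41e-05). The pair therefore changed balance: Ulk2 exceeded Ulk1 by 0.26 ± 0.22 (SD, n = 3) on the log2 scale of normalised counts in muscle and by 3.59 ± 0.11 (SD, n = 3) in testis. Atg101, which stabilises Atg13, was at 545, 488 and 669 in muscle and 78.5, 68.3 and 101 in testis, a 6.83-fold difference (limma, adjusted p = 1.28e-06). Per kilobase, Ulk2 was 24.8% of the 4 genes' sum in wild-type muscle and 61.7% in wild-type testis, while Ulk1 was 22.8% and 5.7%.

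In the phosphatidylinositol 3-kinase complex, Becn1, its scaffold beclin 1, was higher in testis, at 2284, 2353 and 2238 against 1208, 1081 and 1374 in muscle (1.89-fold; limma, adjusted p = 2.6e-05). It shares a stretch of 1299 bases with Cntd1 on the opposite strand, which reached 2350 normalised counts in testis and 760 in muscle. The counting of strand is not given in the sources used here, so reads of the pair may not be separable. Atg14, the subunit that directs the complex to autophagosome formation, was at 164, 241 and 219 in muscle and 127, 143 and 152 in testis, a difference of 0.55 ± 0.17 (SE) on the log2 scale (limma, adjusted p = 0.0163). This was the least firm of the 28 calls: it was lost without wild-type muscle B (0.43; limma, adjusted p = 0.0615) and without wild-type testis A (0.48; limma, adjusted p = 0.0543).

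The lipid transfer group was the only role in which most genes were higher in testis, 4 of 6. Over all genes, 50.6% were called higher in testis, so this count is near the background. Atg9a, the membrane protein of the vesicles that seed the autophagosome, was at 2723, 2993 and 2847 in testis and 1373, 1495 and 1225 in muscle (-1.07 ± 0.09 on the log2 scale, SE; limma, adjusted p = 6.78e-06). It overlaps Ankzf1 on the opposite strand, so reads of these genes may not be separable. Atg2b and Atg2a, the channels that carry lipid into the growing membrane, were 2.40-fold and 1.98-fold higher in testis (limma, adjusted p = 2.96e-06 and 1.95e-05), and their ratio stayed close to even in both tissues (-0.12 ± 0.08 in muscle and 0.16 ± 0.14 in testis on the log2 scale, SD, n = 3). The PI3P-binding WIPI proteins divided instead. Wipi1 was at 900, 1044 and 1046 in muscle and 439, 433 and 396 in testis (2.35-fold higher in muscle; limma, adjusted p = 2.8e-06). Wipi2, which recruits the conjugation enzymes, was at 705, 678 and 661 in muscle and 1108, 1069 and 1137 in testis (1.62-fold higher in testis; limma, adjusted p = 1.98e-05). Atg9b, the second ATG9 gene, was low in every library, 14.1 to 71.5, and did not pass the test. It shares 294 bases with Nos3 on the opposite strand, which reached 465. Atg2b shares 383 bases with Gskip, which reached 264 in muscle and 186 in testis. The wild-type means of Atg2b were 502 in muscle and 1205 in testis.

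Of the conjugation enzymes, 5 of 7 were higher in muscle, where 37.3% of all genes were. The exception, higher in testis, was the enzyme at the head of the pathway. Atg7, the E1-like enzyme that activates both Atg12 and the ATG8 proteins, was at 879, 886 and 960 in testis and 405, 308 and 352 in muscle (2.57-fold higher in testis; limma, adjusted p = 5.21e-06). Atg10, the E2-like enzyme for Atg12, was at 159, 187 and 112 in muscle and 27.4, 7.50 and 20.9 in testis (8.64-fold higher in muscle; limma, adjusted p = 0.00023). Atg10 was near the filter in testis, where 7.50 is 9 reads, so the size of its fold is uncertain (95% confidence interval 2.05 to 4.17 on the log2 scale). Atg5, joined to Atg12 by this step, was at 257, 240 and 271 in muscle and 62.7, 60.8 and 66.0 in testis (4.01-fold; limma, adjusted p = 1.83e-06). Atg16l1, which targets the Atg12-Atg5 conjugate to membranes, was 3.59-fold higher in muscle, its relative Atg16l2 3.24-fold and Atg3, the E2-like enzyme for ATG8 proteins, 1.41-fold (limma, adjusted p = 6.66e-07, 0.0001 and 0.000901). Atg12 itself did not pass the test (-0.20, 95% confidence interval -0.46 to 0.07).

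The ATG4 proteases, which trim ATG8 proteins before conjugation and release them afterwards, also differed in opposite directions. Atg4a was at 570, 536 and 607 in muscle and 25.6, 32.5 and 44.3 in testis (16.7-fold; limma, adjusted p = 2.89e-07). Atg4c was at 140, 154 and 167 in muscle and 394, 374 and 422 in testis (2.58-fold higher in testis; limma, adjusted p = 5.67e-06). Atg4d, which shares 792 bases with Kri1 on the opposite strand (up to 603), was 2.41-fold higher in muscle (limma, adjusted p = 3.43e-06). Atg4b, the most active of the proteases on LC3, did not pass the test (0.08, 95% confidence interval -0.15 to 0.31). Per kilobase of transcript, Atg4a was 44.4% ± 1.7 (SD, n = 3) of the 4 genes' sum in wild-type muscle and 4.9% ± 1.2 (SD, n = 3) in testis, and Atg4c was 8.3% ± 0.4 and 39.5% ± 0.8.

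Of the ATG8 genes, 2 were higher in muscle, 2 were higher in testis and Map1lc3a did not pass the test. All genes give 37.3% called higher in muscle and 50.6% higher in testis, so these counts are near the background. Map1lc3b, the LC3 form most used as an autophagosome marker, was at 2722, 2980 and 3592 in muscle and 592, 552 and 573 in testis (5.37-fold; limma, adjusted p = 1.3e-07). Gabarapl2 was at 997, 1001 and 1189 in muscle and 235, 204 and 262 in testis (4.54-fold; limma, adjusted p = 4.56e-07). Gabarapl1 ran the other way, at 905, 1099 and 1058 in muscle and 2372, 2400 and 2215 in testis (2.29-fold higher in testis; limma, adjusted p = 3.43e-06). It shares 379 bases with 1700101I11Rik on the opposite strand, which reached 1490 in testis and 435 in muscle. Reads of this pair may not be separable either. Gabarap was 1.47-fold higher in testis (limma, adjusted p = 0.00101), and Map1lc3a was at 2008, 2215 and 2622 in muscle and 2188, 2042 and 1972 in testis. The sum of the 5 genes per kilobase overlapped between the tissues, at 5418, 5668 and 6771 in wild-type muscle and 5846, 5666 and 5499 in testis, while its make-up differed: Map1lc3b was 20.5% in muscle and 4.0% in testis, and Gabarapl1 was 9.5% and 22.6%.

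The receptors split by tissue as well, 3 of 4 higher in muscle and Nbr1 higher in testis. Over all genes, 37.3% were called higher in muscle and 50.6% higher in testis. Sqstm1, whose protein p62 gathers ubiquitinated cargo and is itself degraded by autophagy, was at 10068, 10796 and 12236 in wild-type muscle and 977, 1024 and 1017 in testis (10.9-fold; limma, adjusted p = 7.81e-09). Nbr1, a receptor of similar domain build, was at 1722, 1952 and 1701 in muscle and 10470, 10834 and 11089 in testis (6.03-fold higher in testis; limma, adjusted p = 2.44e-08). The ratio of Nbr1 to Sqstm1 was -2.62 ± 0.20 in muscle and 3.42 ± 0.02 in testis on the log2 scale (SD, n = 3). Bnip3, a mitophagy receptor of the outer mitochondrial membrane, was at 3268, 3255 and 3715 in muscle and 152, 152 and 163 in testis (21.8-fold; limma, adjusted p = 2.11e-09). Bnip3l (NIX), its relative that clears mitochondria from maturing red cells, was 2.76-fold higher in muscle (limma, adjusted p = 3.72e-06). Per kilobase, Sqstm1 was the highest of the 34 genes in wild-type muscle (5416 normalised counts per kilobase, followed by Map1lc3a at 2052) on either measure of length. In testis Nbr1 was the highest by transcript length (2255, with Gabarap at 2167 and Map1lc3a at 1859), but Map1lc3a was the highest when all exons were counted.

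**Figure D2:**
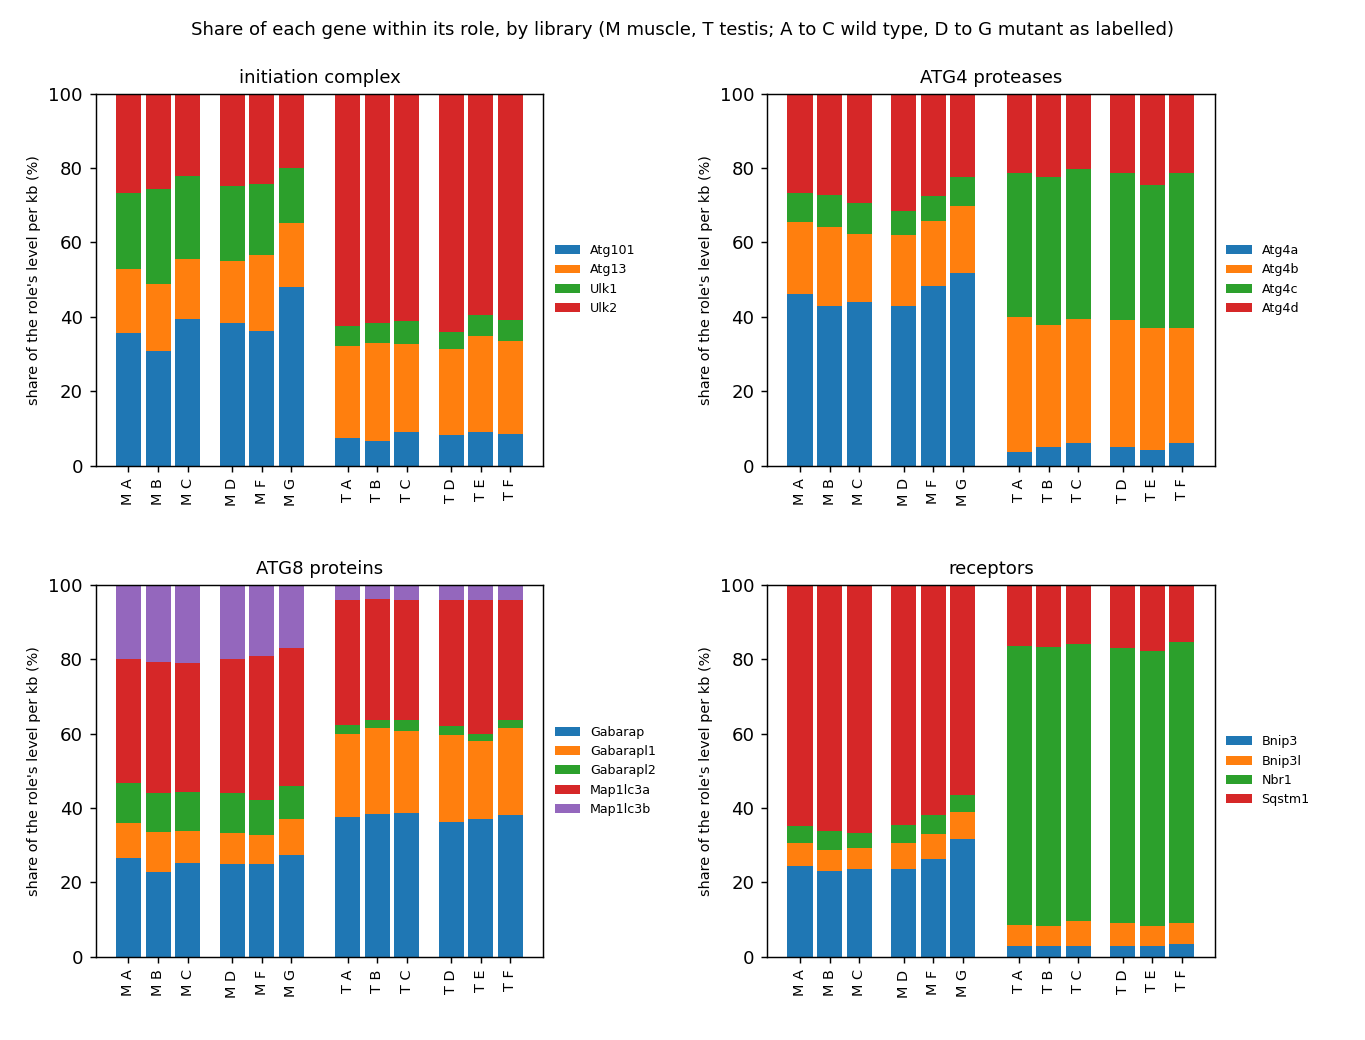
Stacked bars give, for each of the 12 libraries (M muscle, T testis, letters for mice), the share of each gene in its role's summed normalised count per kilobase of transcript, in percent. Sqstm1 takes 65.9% of the receptor sum in wild-type muscle and Nbr1 takes 74.9% in wild-type testis.

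The same tissue differences were seen in libraries with none in common with the wild-type comparison. Between mutant muscle and testis labelled mutant, 28 of the 34 genes were called, again 17 higher in muscle and 11 higher in testis, against 85.9% of 20021 genes tested (36.3% and 49.7% by direction). They were the 28 called in wild type, each in the same direction. Of all genes, 87.9% were called in wild type, and the share called alike in both comparisons was not counted. The agreement of the members is therefore not set against a background. The median gap between the estimates was 0.15 on the log2 scale, and the widest was 0.84, for Atg9b, which was called in neither. Tfeb differed by 4.21, Bnip3 by 4.32, Atg4a by 4.00, Sqstm1 by 3.07 and Nbr1 by -2.73 (limma, adjusted p = 7.03e-07, 1.73e-07, 2.84e-07, 1.13e-07 and 1.5e-07). Atg14 was again the weakest call (0.52; limma, adjusted p = 0.034), lost without mutant muscle D (0.37; limma, adjusted p = 0.088), without F (0.53; limma, adjusted p = 0.0726), without testis E (0.51; limma, adjusted p = 0.0788) or without testis F (0.46; limma, adjusted p = 0.104).

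Transcripts of the other tissue were present at low levels and varied between libraries. Wild-type testis B had a muscle fibre marker sum of 558, against 5561 in A and 12976 in C. For the 15 members at least 2-fold higher in muscle, the level in testis B was 0.95 of the mean of testis A and C in the median, and 0.76 to 1.33 for all but Atg10, at 0.31. Tfeb, Sqstm1 and Bnip3 in testis B were at 1.04, 1.03 and 0.96 of that mean. In the other direction, mutant muscle F and G had germ cell marker sums of 856 and 824, against 1594 to 2171 in the other muscle libraries. The 6 members at least 2-fold higher in testis were at 0.50 (Atg9a) to 1.07 (Atg7) of the mean of muscle A, B, C and D there, and Nbr1 at 0.94. A, B and C are wild type, while F and G are mutants with high islet sums. Germ cell transcripts, genotype and islet transcripts cannot be told apart in these ratios.

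A list of 71 further genes of the pathway, of which 69 were tested, was counted in the same way: 43 were higher in muscle and 17 higher in testis in wild type, 62.3% and 24.6%, where all genes give 37.3% and 50.6%. The median was 0.96 on the log2 scale, against -0.48 over all genes. The differences were largest in muscle for Fundc2, a mitochondrial outer membrane protein (3529 against 76.6 normalised counts on average, 5.51 on the log2 scale), Ctsd, the lysosomal protease cathepsin D (12144 against 724, 4.07), and Npc1, the lysosomal cholesterol transporter (1544 against 100.0, 3.95), with limma adjusted p-values of 2.73e-09, 2.49e-09 and 5.5e-08. In testis they were largest for Rb1cc1, the FIP200 scaffold of the ULK complex (7228 against 1996, -1.87), Tax1bp1, a receptor of ubiquitinated cargo (5601 against 1603, -1.80), and Tollip, an adaptor with a cargo receptor role (3502 against 1035, -1.76), with limma adjusted p-values of 7.44e-07, 1.96e-07 and 2.21e-07.

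In muscle, no member was called between mutant and wild type. Ulk1, Atg9a and Ulk2 had lower values in all 3 mutant libraries than in any wild-type library, with ratios of means between 0.62 and 0.81, and none passed the test across all genes. With limma, 0 of 34 genes were called, against 0.0369% of 16246 genes tested (6 genes), and edgeR and DESeq2 on the recovered reads also called 0. An unadjusted p below 0.05 was reached by 3 members, all lower in the mutant, a share of 8.8% where all genes give 9.52%. Of the 34, 22 had a log2 difference below 0 and 12 above, and 55.5% of all genes were below 0. The median was -0.05 over the members and -0.04 over all genes. In 5 members, Ulk1, Ulk2, Atg9a, Sqstm1 and Atg4c, every mutant library was below every wild-type library, where 8.85% of all genes did so. In 0 members was every mutant library above, where 5.11% of all genes were.

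**Figure D3:**
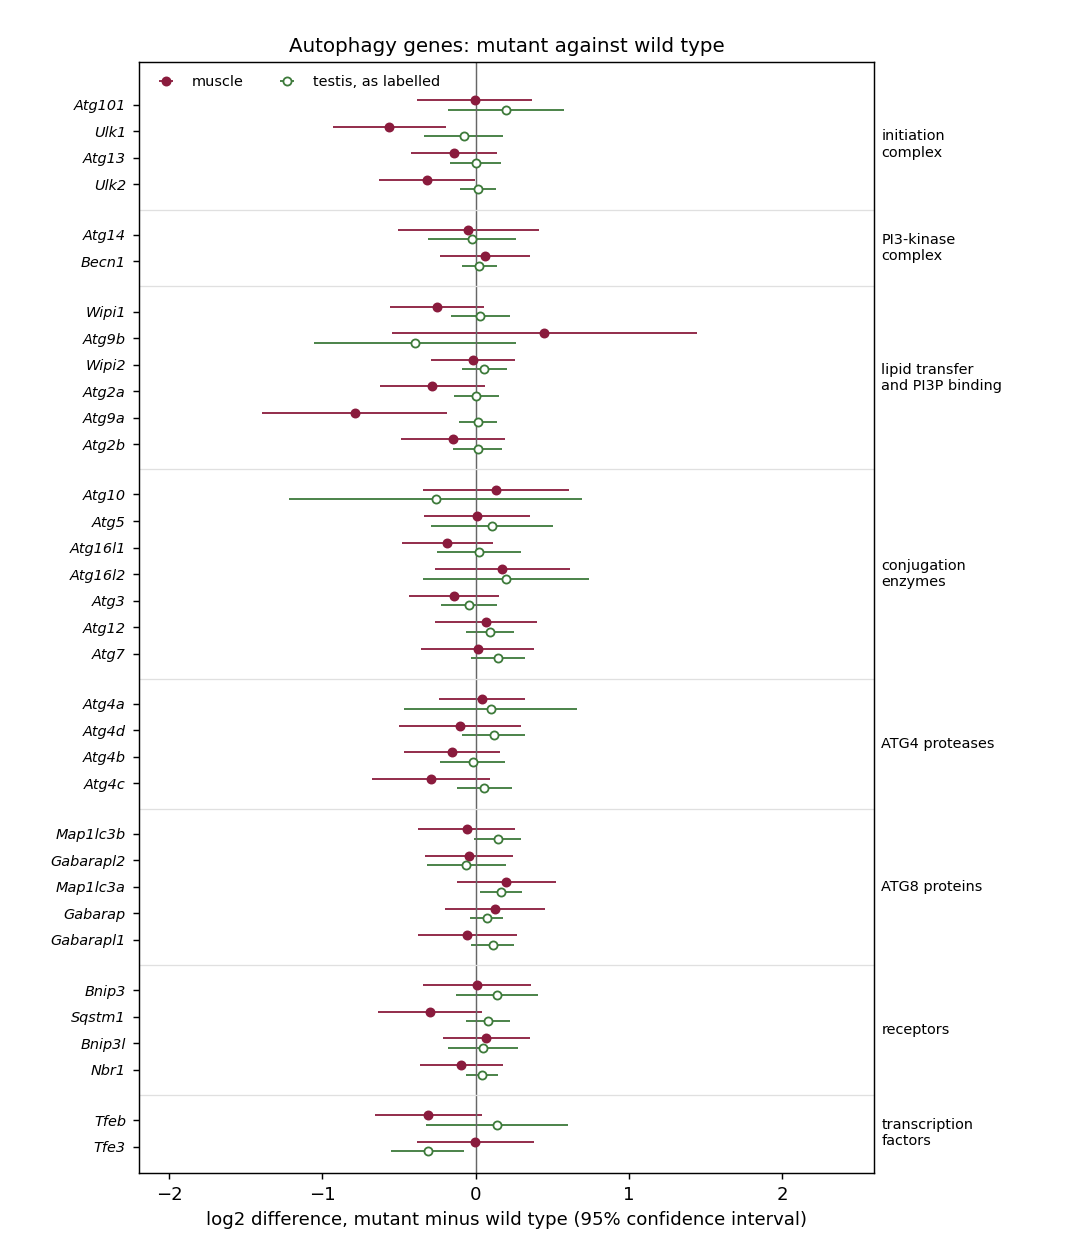
Log2 difference between genotypes (mutant minus wild type, horizontal axis) for the 34 genes by role, with 95% confidence intervals from limma, in muscle (filled) and in testis by label (open). Intervals in muscle lie wholly below 0 for Ulk1, Atg9a and Ulk2 before adjustment, and in testis wholly below 0 for Tfe3 and above 0 for Map1lc3a.

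The 5 members with the smallest p in muscle were Ulk1, Atg9a, Ulk2, Tfeb and Sqstm1. Ulk1 was at 1292, 1659 and 1553 in the wild types (A, B, C) and at 1225, 1021 and 823 in the mutants (D, F, G). Its difference was -0.56 ± 0.17 (SE) on the log2 scale (limma, unadjusted p = 0.00638, adjusted p = 0.519). The mutant values spread downward from D, just under the lowest wild type, to G. Atg9a was at 1373, 1495 and 1225 in wild type and 1211, 855 and 469 in the mutant, a difference of -0.79 ± 0.27 (SE; limma, adjusted p = 0.519) with D just under wild-type C. Atg9a overlaps Ankzf1 on the opposite strand, and reads of these genes may not be separable. Ulk2 was at 1849, 1824 and 1701 in wild type and 1679, 1432 and 1236 in the mutant (-0.32 ± 0.14, SE; limma, adjusted p = 0.519). In all of these D lay closest to wild type and G farthest from it.

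Tfeb was at 1196, 1327 and 1523 in wild type and 1161, 1229 and 888 in the mutant (-0.31 ± 0.16, SE; limma, adjusted p = 0.539), and the groups overlap. Sqstm1 was at 10068, 10796 and 12236 in wild type and 9548, 8513 and 8780 in the mutant (-0.30 ± 0.15, SE; limma, adjusted p = 0.54), without overlap. The remaining 29 members had differences between -0.29 and 0.45, with the ATG8 genes between -0.06 (Map1lc3b) and 0.20 (Map1lc3a). Intervals show what the 6 libraries could resolve: that of Sqstm1 was -0.64 to 0.04, that of Map1lc3b -0.37 to 0.26 and that of Bnip3 -0.35 to 0.36. In simulated counts with the spread of these muscle libraries, 56.0% of genes changed by 1 on the log2 scale were called. Of those changed by 2, 82.0% were. Genes were drawn independently there, without shifts shared by whole libraries, and changes were placed in genes of any level that passed the filter. These rates therefore need not hold for the members in the real libraries. Bnip3 and Atg16l2 lie on chromosome 7 with Bckdk, 10.98 and 26.6 Mb from it, and neither was called.

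**Figure D4:**
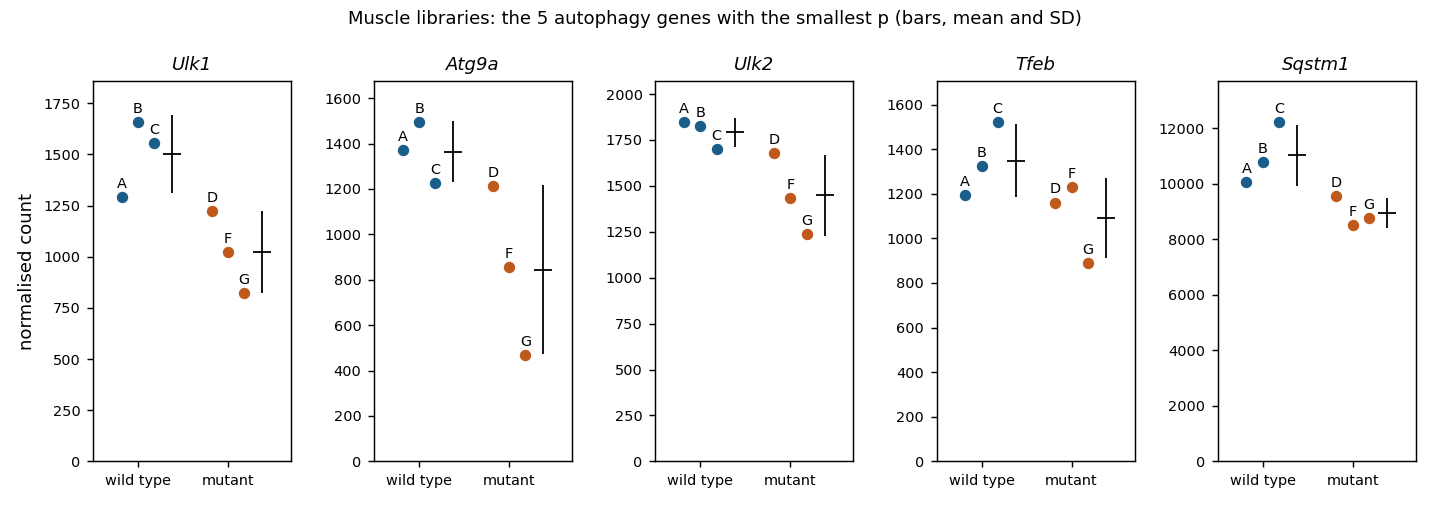
Normalised counts (vertical axis, from 0) of the 5 members with the smallest p in muscle, for 3 wild-type (A, B, C) and 3 mutant (D, F, G) libraries, with the mean and SD of each group beside the points. In Ulk1, Atg9a and Ulk2, mutant D sits next to the wild types and mutant G is lowest.

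These differences moved with the libraries that stood apart. Without mutant D, which left F and G, Ulk1 was at -0.70 (limma, adjusted p = 0.0474) and Atg9a at -1.10 (limma, adjusted p = 0.0351) and both were called, while the genes called over the whole table went from 6 to 497. Without G, both were at -0.42 and not called (limma, adjusted p = 0.947). Comparing D alone with the 3 wild types, that is without the libraries high in islet transcripts and assuming that D varies like the other group, gave -0.29 for Ulk1, -0.17 for Atg9a, -0.09 for Ulk2, -0.21 for Tfeb and -0.20 for Sqstm1 (limma, adjusted p = 1.00 for each). F and G are the libraries with islet sums of 31566 and 29738, and G the one with the adipocyte sum of 52506 and the low muscle fibre sum. The part of these transcripts in the lower values of Ulk1 and Atg9a was not tested.

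In testis, no member was called between the libraries labelled mutant and wild type. The 2 with an unadjusted p below 0.05 were Tfe3, lower by label, and Map1lc3a, higher by label. With limma, 0 of 34 were called, against 0.0205% of 19543 genes (4 genes), and edgeR and DESeq2 also called 0. The share of members with an unadjusted p below 0.05 was 5.9%, and that of all genes was 7.09%. Of the 34, 25 had a difference above 0, where all genes give 59.6%, and the medians were 0.05 and 0.03. Wild-type A and B had islet marker sums of 18757 and 18559, against 10209 to 13198 in the other 4 testis libraries, and D and E labelled mutant had Leydig cell marker sums of 8488 and 7776, against 6355 in F and 6436 to 6568 in wild type. Against wild-type C alone, that is without A and B and assuming that C varies like the other group, Tfe3 was at -0.30 and Map1lc3a at 0.23 (limma, adjusted p = 0.998 for each), and the part of the Leydig cell transcripts was not tested. The groups did not overlap for 3 members, Tfe3 lower (3.67% of all genes in that direction) and Map1lc3b and Gabarap higher (9.72%).

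Tfe3 was at 251, 219 and 231 in the wild-type testes and at 201, 189 and 174 in those labelled mutant, a difference of -0.31 ± 0.11 (SE; limma, unadjusted p = 0.0138, adjusted p = 0.696). All 3 labelled mutants were below all wild types. Map1lc3a was at 2188, 2042 and 1972 in wild type and 2344, 2442 and 2173 labelled mutant (0.17 ± 0.06, SE; limma, adjusted p = 0.696), where F fell below wild-type A. Map1lc3b was at 592, 552 and 573 and at 650, 627 and 618 (0.14 ± 0.07, SE; limma, adjusted p = 0.724), without overlap. Atg7 was at 879, 886 and 960 and at 935, 1125 and 964 (0.15 ± 0.08, SE; limma, adjusted p = 0.747), and Gabarapl1 at 2372, 2400 and 2215 and at 2655, 2326 and 2566 (0.11 ± 0.06, SE; limma, adjusted p = 0.747). For the receptors Sqstm1 and Nbr1 the testis intervals, -0.06 to 0.22 and -0.06 to 0.15, were narrower than those in muscle. In simulated counts with the spread of the testis libraries, 77.0% of genes changed by 1 on the log2 scale were called. The limits given for the muscle simulation hold here too.

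The difference of the genotype effect between the tissues was also called in 0 of 34 members with limma, edgeR and DESeq2 (limma called 0.0136% of 14677 genes, 2 genes). With an unadjusted p below 0.05 there were 4 members (11.8%, against 8.69% of all genes), Sqstm1, Atg9a, Ulk1 and Ulk2, each more negative in muscle. Of the 34 differences 26 were more negative in muscle, where 60.8% of all genes were. Sqstm1 had the smallest p: its genotype difference was -0.30 in muscle and 0.08 in testis, and the difference between them was -0.38 ± 0.14 (SE; limma, adjusted p = 0.574). Atg9a differed by -0.81 ± 0.34 and Ulk1 by -0.49 ± 0.22 (SE; limma, adjusted p = 0.574 for each). Without mutant muscle D, Atg9a was called (-1.12; limma, adjusted p = 0.018), while 951 genes were called over the whole table in place of 2. Because Bckdk was not lower in the testis libraries labelled mutant, this compares the labels, which NeoR followed in both tissues, and not a lower Bckdk in both.

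Among the 69 further pathway genes tested, 0 were called in either genotype comparison with limma. In muscle 47 were below 0 and 22 above, that is 68.1% below where all genes give 55.5%, with a median of -0.12 against -0.04 over all genes, and 10 had an unadjusted p below 0.05 (14.5%, against 9.52% of all genes), 9 of them lower. The smallest p belonged to Epg5, a tether for fusion with lysosomes, at 618, 791 and 594 in wild type and 560, 443 and 343 in the mutant (-0.59), Gaa, the lysosomal acid alpha-glucosidase, at 5073, 5209 and 5271 and 4372, 3871 and 3063 (-0.48), and Foxo3, a transcription factor that drives autophagy genes in muscle, at 418, 515 and 469 and 382, 336 and 307 (-0.45; limma, adjusted p = 0.519 for each). As in Ulk1 and Atg9a, D was the mutant nearest to wild type and G the farthest. In testis the smallest p belonged to Tpp1, a lysosomal peptidase (-0.42), Rb1cc1 (0.16) and Zfyve1, a marker of the membrane site where autophagosomes form (0.16; limma, adjusted p = 0.696 for each).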

How the data were processed

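RNA was measured in 12 polyA-selected libraries, 3 from each combination of tissue and genotype label. Reads were processed by the submitters, whose notes list the build GRCm38.p4 and, in no stated role, DESeq2 1.46.0, HTSeq 0.11.2, Picard 1.119, HISAT2 2.1.0 and fastp 0.23.4. Per the file headers the authors deposited a table of normalised counts, a signal that is the read count divided by a size factor per library, and a table of regularised log2 values for the same libraries. Multiples of the step in each library gave whole reads for 100% of values to within 0.001. In testis D labelled mutant 26 genes hold dates in place of values, none a member, and were left out of tests with that library.

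Log2(normalised count + 1) was fitted with limma 3.58.1 (R 4.3.3; lmFit and trended eBayes; two-sided tests) on genes with at least 10 in at least 3 libraries fitted, adjusted by Benjamini-Hochberg over all genes tested. The fit was tested on simulated data. The comparisons were genotype in each tissue, tissue in wild types, tissue in libraries labelled mutant, and the interaction. Positions and transcript lengths came from GENCODE M21 (GRCm38). Levels between genes are compared per kilobase of the principal transcript, with the length of all exons as a check. Values in every library are given for the 5 members with the smallest p in each genotype comparison, the 3 in the interaction and up to 2 called members per role and tissue with the largest differences. The rule for members uses symbols alone, but members, roles and lists were chosen with earlier results of these data known.

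The table's columns carry mouse numbers that are not tied to the replicate numbers of the titles, so a column stands for a mouse of its group. Of 7 mice, 5 gave both tissues, and the deviations of their muscle and testis libraries from the group means correlated at -0.036 to 0.0085 over 14677 genes. The mouse was used as a replicate block only in an alternative fit of the tissue comparisons and the interaction. The estimates and p-values given for these comparisons come from fits without the block. Nothing says that the mice of a group came from separate litters, so p-values measure the spread between these mice. The alternatives tried were other pseudocounts (0.5, 8), other filters (none, or a mean of 50 or more), scaling by the median of ratios or TMM, the deposited log2 values, edgeR 4.0.16 and DESeq2 1.42.0 on recovered reads, all 12 libraries in 1 model, leaving out each library, and leaving out libraries high in islet transcripts (a sum over 1.25 times the tissue's median).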

Additional observations from a re-analysis of the deposited data

How the results depend on the processing

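No member reversed direction while called, in any alternative run. Leaving out each library in turn gave 0 to 2 members called between genotypes in muscle and 0 to 1 in the interaction, where the higher values came from leaving out mutant muscle D (2 and 1), and 0 members called in testis throughout. Over all genes, the muscle count of 6 became 14 with no filter, 36 with DESeq2, 28 with all 12 libraries in 1 model, 10 without wild-type B, 497 without mutant D and 3 without mutant F; the testis count of 4 ranged from 1 to 10, and the interaction count of 2 became 50 with DESeq2 and 951 without mutant muscle D. The causes were not tested. Members called between tissues ranged from 27 to 31 in wild type and 27 to 30 in the libraries labelled mutant. In the paired analysis, with the mouse as a replicate block, 28 members were called in each tissue comparison and 0 in the interaction, so the pairing changed no count of members. No paired analysis was possible within a tissue because the genotypes came from different mice. Among the 6 members not called between wild-type tissues, the sign changed with the setting for Atg12, Atg9b and Tfe3.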

Other observations

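Near-identical copies of members outside their loci were low where they were among the counted features. The Bnip3 copies AC160336.1, Gm45507 and Gm6532 were not among them, so their levels are not known. Syt6, which matches Atg4a at 99.4% over 508 bases, reached 20.5 in muscle. Atg4a-ps, which matches Atg4a at 99.3% over 2115 bases, reached 27.1 normalised counts in muscle, against 536 to 607 for Atg4a, and 2.66 in testis, against 25.6 to 44.3. In any library, Gm6055, a copy of Map1lc3b, reached 23.8, Bnip3l-ps reached 18.2 and Gm16439, a copy of Bnip3, reached 11.6.

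Taken library by library against the wild-type mean of the tissue, the median log2 difference of the 34 genes was -0.07 in mutant muscle D, -0.12 in F and -0.09 in G. It was 0.07, 0.03 and 0.03 in testis D, E and F labelled mutant, and -0.06 to 0.08 in the wild-type muscle libraries themselves.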
